A study of Homo sapiens with 30 samples.

Results

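Pyruvate dehydrogenase kinase 4 (PDK4) and 7 other genes of the switch between glucose and fat as fuel were followed in the line hCMEC/D3, human endothelial cells of brain microvessels that were immortalised. The 8 genes are PDK1, PDK2, PDK3, PDK4, TXNIP, ARRDC4, ANGPTL4 and CPT1A, taken by symbol from a table of 63138 genes. PDK4 was chosen by its measured values in these libraries, lower with IL1b and C5a and higher with epinephrine. Its values in those contrasts are therefore given as a description, without a test, and the other 7 genes were chosen for their known link to it. The study asked what stimuli that disturb the blood-brain barrier do to these cells, and what the extracellular vesicles that the stimulated cells release do to other cells of the line.

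There were 30 libraries in 10 groups of 3. In the 5 direct groups cells were kept for 12 h in serum-free medium alone (Control), or with TNF at 25 ng/mL, IL1b at 10 ng/mL, the complement fragment C5a at 50 ng/mL or epinephrine at 200 nM. In the 5 vesicle groups fresh cells of the same line received, for 12 h, vesicles enriched from the supernatants of cells treated in those 5 ways, and each is named by its source with the prefix EV (EV-TNF, for example). Every group is the same line, with no genetic change named, and all labels give batch 1. The vesicle dose is not given in the sources used here. Nothing says that the 3 libraries of a group came from separate cultures, so p-values measure the spread between these libraries, which may be technical.

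Pyruvate from glycolysis enters mitochondria and is turned into acetyl-CoA by the pyruvate dehydrogenase complex. The 4 pyruvate dehydrogenase kinases phosphorylate the complex and switch it off, and the phosphatases PDP1 and PDP2 switch it on. PDK4 is the isoform known for its strong control at the level of the message: fasting, glucocorticoids, fatty acids acting through PPAR receptors, and FOXO factors raise it in muscle and liver, and insulin lowers it. CPT1A loads long-chain fatty acids onto carnitine for entry into mitochondria, and ANGPTL4, a secreted PPAR, glucocorticoid and hypoxia target, inhibits lipoprotein lipase on the surface of capillary endothelium. TXNIP and ARRDC4 are alpha-arrestins that restrain glucose uptake and follow the glucose sensors MLXIP and MLXIPL.

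The RefSeq windows before the start sites of PDK4, ANGPTL4 and TXNIP are shown because most of the results turn on these 3 messages. Each runs from 250 to 22 bases upstream on GRCh38.p14, on the strand of its gene. All 8 genes were found in the RefSeq promoter table, and of the 2 entries for TXNIP the first is shown. Capitals mark the motif matches described after the sequences. The PDK4 window is chr7:95596538-95596766 (minus strand), the ANGPTL4 window is chr19:8363905-8364133 (plus strand) and the TXNIP window is chr1:145996601-145996829 (minus strand).
PDK4: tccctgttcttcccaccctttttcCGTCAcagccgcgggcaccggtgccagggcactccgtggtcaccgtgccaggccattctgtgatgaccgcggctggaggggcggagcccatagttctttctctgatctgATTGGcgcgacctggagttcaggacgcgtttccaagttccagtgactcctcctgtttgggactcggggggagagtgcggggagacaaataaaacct
ANGPTL4: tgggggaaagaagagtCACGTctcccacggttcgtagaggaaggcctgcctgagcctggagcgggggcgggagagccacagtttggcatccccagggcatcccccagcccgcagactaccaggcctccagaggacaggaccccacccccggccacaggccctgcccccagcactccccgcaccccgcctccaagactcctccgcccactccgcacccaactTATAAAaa
TXNIP: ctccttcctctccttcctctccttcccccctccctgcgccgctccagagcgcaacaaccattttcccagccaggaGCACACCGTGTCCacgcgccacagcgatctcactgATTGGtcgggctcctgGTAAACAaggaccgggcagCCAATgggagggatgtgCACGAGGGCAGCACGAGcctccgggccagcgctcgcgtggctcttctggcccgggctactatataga

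In all 35116 promoters of that table, 250 bases upstream were searched on both strands for 11 motifs: GTAAACA (FOXO core), CACGTG (E-box), a pair of CACGNG with 5 bases between (paired E-box-like, carbohydrate response), TGACGTCA and its part TGACG (cAMP response), GNACA and TGTNC with 3 bases between (glucocorticoid response), 2 copies of AGGTCA with 1 base between (PPAR direct repeat), ACGTG (hypoxia core, contained in the E-box), AAAGGTCA (NR4A), TATAAA and CCAAT. TXNIP held the paired E-box-like motif from base -88 to -72, counted from the start site, which 16 promoters of the table (0.0456%) hold. It also held GTAAACA from -124 to -118 (2.98% of promoters), the glucocorticoid motif from -175 to -163 (0.327%), and CCAAT at -140 on the other strand and at -105 on its own (32% of promoters hold a CCAAT). PDK4 held TGACG on the other strand from -226 to -222 (21.2%) and CCAAT on the other strand from -117 to -113. ANGPTL4 held TATAAA from -29 to -24 (10.7%) and ACGTG on the other strand from -234 to -230 (18.5%). The PPAR repeat (0.0171% of promoters), the NR4A motif (1.05%) and TGACGTCA (1.65%) were in none of these 3 windows. ARRDC4 held CACGTG from -210 to -205 (6.34%). The ANGPTL4 start site used by RefSeq lies inside the span that GENCODE 29 gives the gene. A match describes letters only, and part of the PDK4 window (95596682 to 95596766) lies in an annotated exon of the non-coding gene AC002451.1 on the other strand.

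Library totals ran from 16643961 to 22112326 counts. Of the 8 genes, 7 passed the filter on low counts in all 3 model fits, and ARRDC4 passed in none. Levels are CPM, the count of a gene scaled to a common library size with the trimmed mean of M-values (TMM). All 10 endothelial markers were at a median of at least 1 CPM (summed 683 to 1160 CPM), the 5 leukocyte markers summed to 0.576 to 2.26 CPM, and the 5 astrocyte and neuron markers to 1.27 to 6.55 CPM, with GFAP at a median of 3.64 CPM and AQP4 at 0 in every library. Of 6 pericyte markers 5 passed 1 CPM (summed 321 to 511 CPM), as did 3 keratins among 5 epithelial markers (summed 164 to 365 CPM). Their part in the results was not tested. In bulk RNA, fewer cells making a message and less message per cell cannot be told apart. The TNF libraries had the lowest scaling factors. With library totals in place of TMM the median of all genes with TNF moved from -0.01 to -0.29 on the log2 scale, and changes with TNF are read against that shift.

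PDK4 (ENSG00000004799, GRCh38 chromosome 7, 95583499 to 95596491, minus strand) had the widest range of the 7 measured genes, with a 15.6-fold ratio between its highest and lowest group mean. Those were Epinephrine and IL1b, whose values were used to choose PDK4, so this rank follows from the choice. In the Control libraries it stood at 83.8, 74.0 and 69.9 CPM. With IL1b it stood at 11.1, 8.67 and 12.0 CPM, and with C5a at 20.2, 21.8 and 19.1 CPM. With epinephrine it stood at 162, 146 and 189 CPM. None of these 3 groups overlapped Control. Of all tested genes, 56.3% did not overlap Control with IL1b, 40.4% with C5a and 33.9% with epinephrine. The log2 fold change was -2.83 with IL1b, -1.89 with C5a and 1.14 with epinephrine. These contrasts chose the gene and carry no test here. IL1b and TNF, both inflammatory cytokines that signal to NF-kappaB, stood far apart: with TNF the libraries were at 85.4, 88.8 and 91.7 CPM, and the IL1b-minus-TNF difference was -3.06 on the log2 scale.

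With TNF, PDK4 was just above Control (log2 fold change 0.22, standard error 0.09, adjusted p = 0.0486, Benjamini-Hochberg, in edgeR's quasi-likelihood test). The TNF libraries did not overlap Control, as was so for 59.6% of all tested genes. The call ended in a fit of all 30 libraries (adjusted p = 0.194), with a filter at a mean of 50 counts (0.0673) and in 5 of 6 fits without a library (adjusted p from 0.0556 to 0.179). It held only without Control replicate 1 (0.0087). With library totals as the scale the value was -0.05. The Control libraries of this test are those of the contrasts that chose PDK4.

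**Figure D1:**
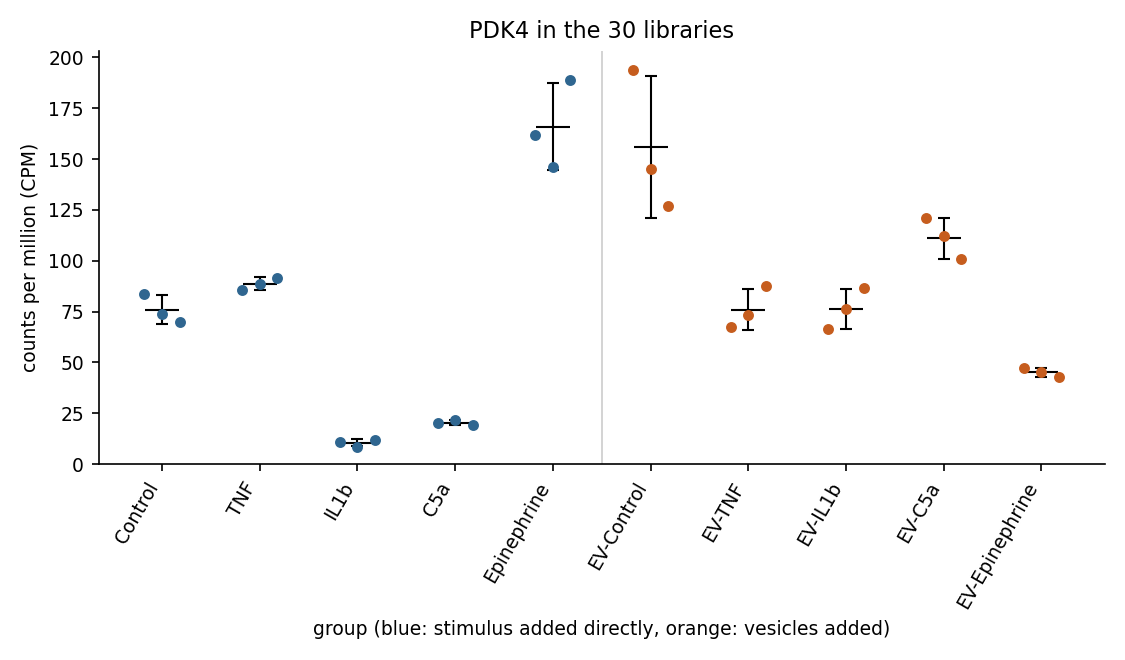
PDK4 level in CPM (vertical axis) in each library (points) of the 10 groups (horizontal axis), with the group mean (line) and SD of 3 libraries (bars). IL1b and C5a lie lowest, at means of 10.6 and 20.4 CPM, and Epinephrine and EV-Control highest, at 166 and 156 CPM.

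Cells given vesicles of unstimulated cells had more PDK4 than cells given none, and vesicles of TNF-, IL1b- or epinephrine-treated cells gave lower levels than those. EV-Control stood at 194, 145 and 127 CPM, all above Control, a log2 change of 1.03 (standard error 0.14, adjusted p = 6.94e-06). Of all tested genes, 34.9% had no overlap between these 2 groups. This comparison shares the Control libraries with the contrasts that chose the gene. EV-Control and Control differ in the vesicle addition as a whole, so the vesicles and the handling that came with them cannot be told apart. EV-TNF stood at 67.6, 73.1 and 87.4 CPM and EV-IL1b at 66.6, 76.1 and 86.4 CPM, all below the lowest EV-Control library. Of all tested genes, 27.1% with EV-TNF and 28.5% with EV-IL1b did not overlap EV-Control. The means of EV-TNF and EV-IL1b, 76.0 and 76.4 CPM, were close to the 75.9 CPM of Control. EV-Epinephrine was the lowest vesicle group, at 47.5, 45.2 and 43.0 CPM. Its log2 change against EV-Control was -1.78 (standard error 0.17, adjusted p = 2.48e-05). For EV-TNF the change was -1.04 (adjusted p = 0.00139) and for EV-IL1b -1.03 (0.00143), and both held without any single library. A fit of only those 2 groups gave the same sizes with adjusted p = 0.0651 and 0.0619. EV-C5a, at 121, 112 and 101 CPM, did not pass the test (log2 change -0.48, 95% interval -0.82 to -0.13, adjusted p = 0.509). Its libraries lay below those of EV-Control, and 10.9% of all tested genes had no overlap between these 2 groups.

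The order of PDK4 group means was Epinephrine, EV-Control, EV-C5a, TNF, EV-IL1b, EV-TNF, Control, EV-Epinephrine, C5a and IL1b. Neighbours whose libraries overlapped were Epinephrine with EV-Control, TNF with EV-IL1b, EV-IL1b with EV-TNF, and EV-TNF with Control. Epinephrine thus stood at opposite ends of the 2 designs. Added directly it went with the highest mean of all (166 ± 21.6 CPM, SD, n = 3), and the vesicles of epinephrine-treated cells went with the lowest vesicle mean (45.2 ± 2.24 CPM). The difference of the 2 responses, vesicle minus direct, was -2.91 on the log2 scale. For IL1b and C5a it went the other way, at 1.82 and 1.42. None of these differences was tested, because the direct contrasts chose the gene. For TNF the difference was -1.26 (standard error 0.20, adjusted p = 1.46e-05). That value includes the Control libraries of the contrasts that chose PDK4, so it is not independent of the choice.

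The other 3 kinases were less abundant per length of message than PDK4 in Control. Per kilobase of exon, Control cells held 16.8 CPM of PDK4, 5.35 of PDK2, 1.30 of PDK3 and 1.03 of PDK1. PDK4 thus made up 68.5% ± 1.63 (SD, n = 3) of the 4 kinase messages per length in Control and 81% ± 1.16 with TNF. It made up 27.7% ± 3.4 with IL1b, 39.1% ± 3.16 with C5a and 83.4% ± 1.45 with epinephrine. In vesicle groups the share ran from 54.1% ± 0.562 in EV-Epinephrine to 79.7% ± 4.04 in EV-Control. The summed level of the 4 messages ran from 8.44 ± 0.37 CPM per kilobase with IL1b to 43.9 ± 4.95 with epinephrine. Shares and sums with IL1b, C5a and epinephrine contain the PDK4 values that chose the gene, so they are not a separate finding. With TNF the sum was 24.2 ± 0.673, close to the 24.5 ± 1.73 of Control under TMM scaling, although the PDK4 share was higher. With library totals as the scale the PDK4 log2 change with TNF was -0.053, and the sum was not computed on that scale.

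**Figure D2:**
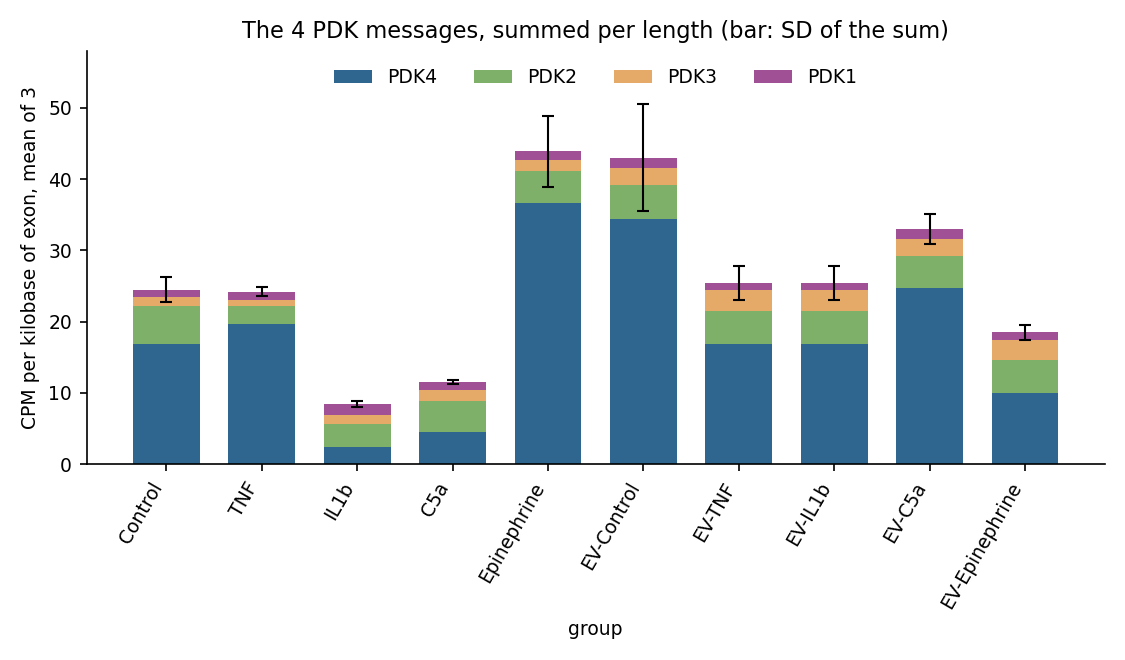
Summed level of the 4 PDK messages in CPM per kilobase of exon (vertical axis, from 0) in the 10 groups, stacked by gene from the mean of 3 libraries, with the SD of the sum as bars. PDK4 fills most of the bar in every group except IL1b and C5a, where its share is 27.7% and 39.1%. The PDK4 values with IL1b, C5a and epinephrine are those that chose the gene.

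PDK2, the kinase with the widest distribution over tissues, fell with both cytokines. It stood at 29.6, 29.7 and 28.6 CPM in Control, at 13.9, 15 and 13.6 with TNF and at 16.9, 19.0 and 18.5 with IL1b, without overlap. Of all tested genes, 59.6% with TNF and 56.3% with IL1b did not overlap Control. The log2 changes were -1.05 with TNF (standard error 0.10, adjusted p = 9.03e-12) and -0.68 with IL1b (adjusted p = 8.86e-08). Falls of 0.26 with C5a (adjusted p = 0.0278) and 0.25 with epinephrine (0.0332) were called, but neither was stable. Leaving out Control replicate 1 or 2 or C5a replicate 2 ended the first, at -0.15 without the last, and leaving out any of the 6 libraries ended the second (adjusted p from 0.0502 to 0.102). No vesicle group passed the test against EV-Control in PDK2 (log2 changes from -0.07 to -0.04, adjusted p from 0.663 to 0.928). Exons of SAMD14 and other genes on the opposite strand overlap 2113 bases of PDK2, and whether counting used the strand is not given. SAMD14 itself had 77 to 350 counts per library.

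PDK1, a hypoxia-inducible kinase, rose with IL1b and was lower in 3 vesicle groups than in EV-Control. Control stood at 15.8, 15.3 and 15 CPM and IL1b at 22.9, 21 and 25.3 (log2 change 0.60, standard error 0.09, adjusted p = 1.92e-06). A rise of 0.30 with epinephrine (adjusted p = 0.0167) was lost without Control replicate 3 or Epinephrine replicate 1 or 3, at adjusted p from 0.0533 to 0.0837. The rise of 0.22 with TNF (adjusted p = 0.0497) was lost without any of the 6 libraries (adjusted p from 0.0636 to 0.119), and it was -0.05 with library totals as the scale. EV-Control, at 25.0, 19.5 and 18.8 CPM, lay above Control (log2 change 0.46, adjusted p = 0.000344). EV-TNF (14.6, 14.7 and 13.0 CPM), EV-IL1b (16.4, 14.9 and 14.7) and EV-Epinephrine (16.1, 15.1 and 14.6) all lay below EV-Control, with log2 changes of -0.58, -0.46 and -0.46 and adjusted p from 2.79e-05 to 0.000763. Of all tested genes, 27.1%, 28.5% and 34.1% did not overlap EV-Control in these groups. Their PDK1 means, 14.1, 15.3 and 15.3 CPM, were near the 15.4 CPM of Control. Exons of AC078883.1 on the other strand overlap 445 bases of PDK1.

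PDK3, the least abundant kinase by count, fell with TNF and stood higher in every vesicle group than in any direct group. The share of all genes with that separation was not computed. Between EV-Control and Control alone, 34.9% of all tested genes did not overlap. Vesicles and the handling that came with them cannot be told apart here either. Control was at 6.61, 6.73 and 6.02 CPM and TNF at 3.81, 4.68 and 3.29 (log2 change -0.71, standard error 0.17, adjusted p = 0.000397). EV-Control was at 10.4, 11.2 and 13.4 CPM, a log2 change of 0.86 against Control (adjusted p = 4e-07). EV-TNF, EV-IL1b and EV-Epinephrine had group means of 14.7, 14.7 and 14.3 CPM, with rises of 0.32, 0.32 and 0.29 over EV-Control (adjusted p = 0.0356, 0.0344 and 0.0487). These 3 calls held without EV-Control replicate 3, where the rises were 0.44, 0.44 and 0.40. They were lost without EV-Control replicate 1 or 2 (adjusted p from 0.117 to 0.238), with no filter on low counts (0.0531, 0.0575 and 0.092), in a fit of all 30 libraries (0.0611, 0.0593 and 0.0814) and of only the 2 groups (0.0707, 0.0705 and 0.0701). The call in EV-Epinephrine was also lost with DESeq2 (0.0645) and with relative log expression factors (0.0528). Of the treated libraries, only leaving out EV-TNF replicate 2 or EV-IL1b replicate 2 kept a call.

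ANGPTL4 (chromosome 19, 8363289 to 8374373, plus strand) rose with TNF and epinephrine, fell with C5a, and was lower in EV-TNF, EV-IL1b and EV-Epinephrine than in EV-Control, with EV-Epinephrine lowest, as for PDK4. Control stood at 80.1, 73.7 and 65.6 CPM and epinephrine at 137, 171 and 173 (log2 change 1.14, standard error 0.09, adjusted p = 1.84e-07). With TNF it was at 189, 214 and 204 CPM, its highest level (log2 change 1.47, adjusted p = 9.82e-10). With IL1b it was at 78.1, 82.1 and 91.5 CPM, overlapping Control (log2 change 0.21, adjusted p = 0.09). That difference was called by DESeq2 (adjusted p = 0.0374), in a fit of only the 2 groups (0.00819), with no filter on low counts (0.00202) and without Control replicate 1 (0.0212). IL1b and TNF differed directly, with IL1b lower by 1.26 on the log2 scale (adjusted p = 1.07e-08), a contrast where PDK4 was lower by 3.06. With C5a it fell to 39.9, 43.1 and 38.9 CPM (log2 change -0.84, adjusted p = 1.46e-05). PDK4 and ANGPTL4 share their Control libraries in these contrasts, so their values are set side by side and not correlated.

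Among vesicle groups, ANGPTL4 ran from EV-Control (140, 132 and 108 CPM) through EV-C5a (106, 109 and 111), EV-IL1b (67.0, 63.9 and 68.1) and EV-TNF (55.8, 58.9 and 57.7) to EV-Epinephrine (48.5, 48.2 and 46.4). The last 3 lay wholly below EV-Control, with log2 changes of -0.93 (adjusted p = 2.32e-13), -1.14 (1.19e-15) and -1.41 (8.46e-18). Of all tested genes, 28.5%, 27.1% and 34.1% did not overlap EV-Control in these groups. EV-C5a overlapped EV-Control (log2 change -0.22, adjusted p = 0.276), and that fall was called only without EV-Control replicate 3 (adjusted p = 5.45e-05) and with no filter on low counts (0.0135). EV-Control lay above Control by 0.79 (adjusted p = 7.55e-07). The vesicle response differed from the direct response for all 4 stimuli. The differences were -2.60 for TNF (adjusted p = 4.48e-14), -2.54 for epinephrine (7.26e-13), -1.13 for IL1b (3.19e-07) and 0.63 for C5a (0.0023). ANGPTL4 was thus higher with TNF and epinephrine added directly and lower with vesicles of cells that had received them.

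**Figure D3:**
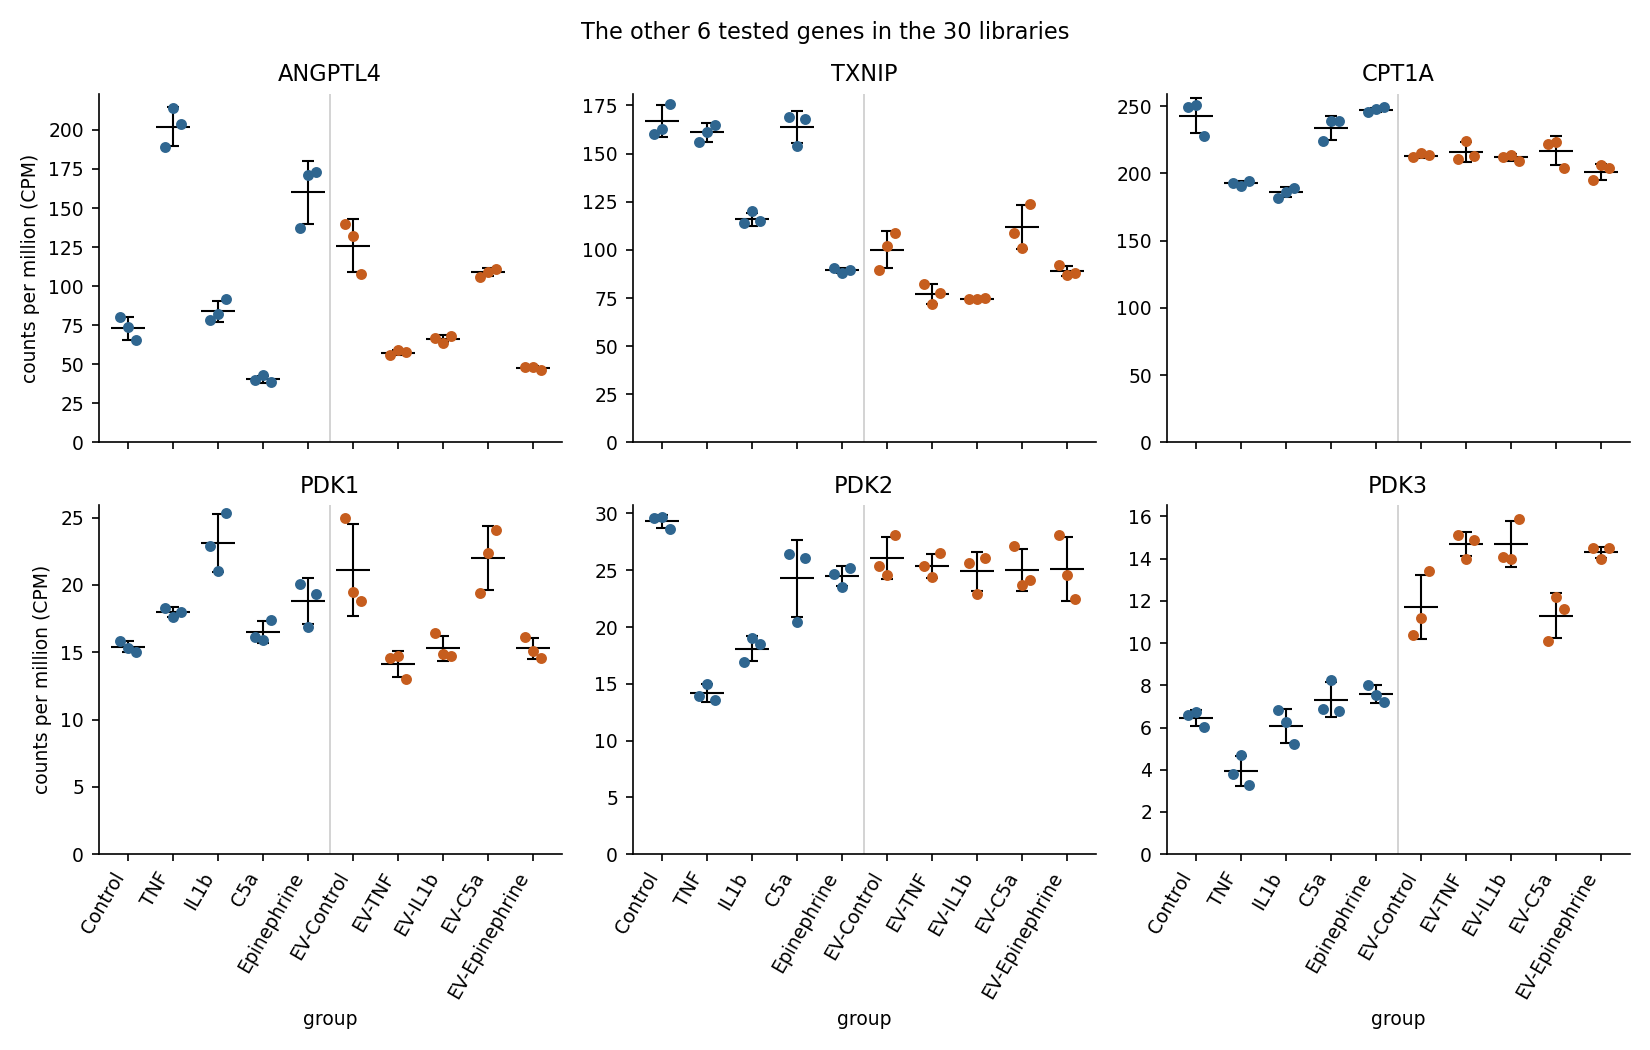
Levels in CPM (vertical axes, from 0, 1 scale per panel) of the other 6 tested genes in each library (points) of the 10 groups, blue for direct and orange for vesicle groups, with means (lines) and SD of 3 libraries (bars). ANGPTL4 is highest with TNF (mean 202 CPM), PDK2 lowest with TNF (14.2 CPM), and PDK3 lies at 11.3 CPM or more in each vesicle group and at 7.59 CPM or less in each direct group.

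TXNIP (chromosome 1, 145992435 to 145996600, minus strand), which binds thioredoxin and restrains glucose uptake, fell with epinephrine and IL1b and was lower in EV-Control than in Control. It stood at 160, 163 and 176 CPM in Control and at 90.8, 88.1 and 89.5 with epinephrine (log2 change -0.89, standard error 0.05, adjusted p = 8.31e-16). IL1b lowered it to 114, 120 and 115 CPM (log2 change -0.51, adjusted p = 8.95e-11). TNF and C5a libraries overlapped Control, with log2 changes of -0.05 (95% interval -0.15 to 0.05) and -0.01 (-0.11 to 0.08). With library totals as the scale the TNF value was -0.33 (adjusted p = 3.82e-07). EV-Control, at 89.7, 102 and 109 CPM, lay below Control by 0.73 (adjusted p = 7.39e-15). EV-TNF (82.2, 71.9 and 77.7 CPM) and EV-IL1b (74.3, 74.5 and 74.8) were lower again, by 0.38 (adjusted p = 0.000977) and 0.43 (0.000269) on the log2 scale. EV-Epinephrine, at a mean of 89.1 CPM, did not pass the test against EV-Control (log2 change -0.17, adjusted p = 0.107), but did without EV-Control replicate 1 (-0.24, adjusted p = 0.0029), with no filter on low counts (0.0079), in a fit of all 30 libraries (0.0365) and of only the 2 groups (0.0421).

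ARRDC4, the other glucose-sensitive alpha-arrestin, was close to undetected, with 0 to 15 counts per library and 100 counts in all 30. It was at 0 in all 3 TNF libraries, which allows up to 3 counts per library (0.161 to 0.2 CPM, counting error only). The highest library was EV-Epinephrine replicate 3, at 0.875 CPM. It was not tested.

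CPT1A, the carnitine palmitoyltransferase of the outer mitochondrial membrane, was the most abundant of the 8 by count and the most even, with group means between 186 and 247 CPM. It fell with TNF (193, 191 and 194 CPM against 249, 251 and 228 in Control, log2 change -0.34, adjusted p = 7.34e-08) and with IL1b (182, 186 and 189 CPM, -0.38, adjusted p = 9.15e-09). C5a and epinephrine did not pass the test (log2 changes -0.05 and 0.04, 95% intervals -0.14 to 0.05 and -0.06 to 0.13). EV-Control, at 212, 215 and 214 CPM, lay 0.19 below Control (adjusted p = 0.000323), and no vesicle group passed the test against it (log2 changes from -0.08 to 0.02, adjusted p from 0.116 to 0.945). Per kilobase, Control cells held 45.9 CPM of TXNIP, 37.0 of CPT1A, 29.5 of ANGPTL4 and 16.8 of PDK4.

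**Figure D4:**
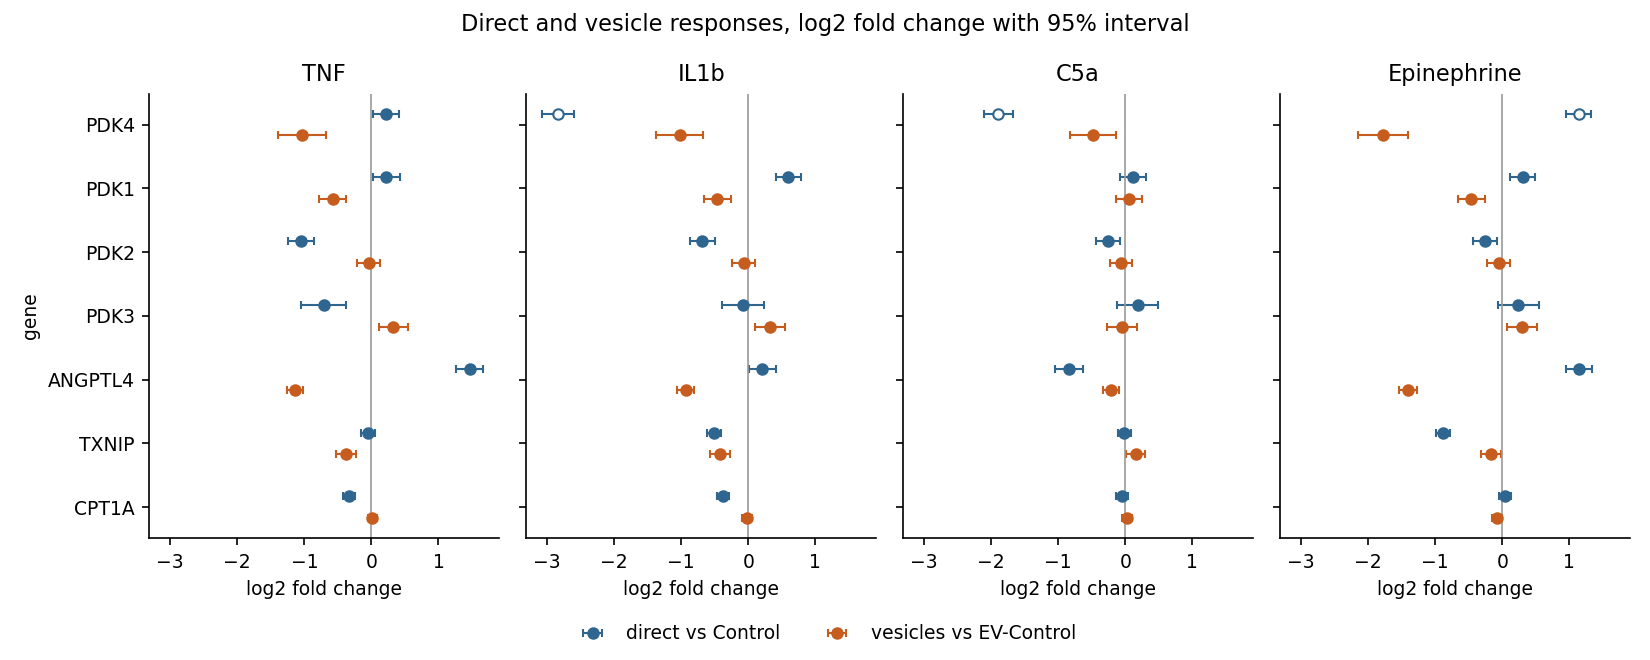
Log2 fold change (horizontal axes, 0 = no change) of the 7 measured genes (vertical axis) for each stimulus, direct against Control in blue and vesicles against EV-Control in orange, with 95% intervals from the edgeR fit. Open symbols mark PDK4 contrasts that chose the gene and carry no test. Their intervals make no allowance for that choice and are not to be read as a test. For TNF and epinephrine ANGPTL4 lies right of 0 in blue (1.47 and 1.14) and left of 0 in orange (-1.14 and -1.41).

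Calls among the 7 measured genes are read against the share of all genes called in the same comparison. With TNF 6 of 7 were called, 3 higher and 3 lower, where 52.7% of all tested genes were called (27.5% higher, 25.3% lower). Leaving PDK4 out, IL1b had 4 of 6 called, 1 higher and 3 lower, against 46.6% of all genes (24.0% and 22.6%). C5a had 2 of 6, both lower, against 22.6% (11.8% higher, 10.8% lower), and epinephrine 4 of 6, with 2 each way, against 25.2% (13.5% and 11.8%). EV-TNF had 5 of 7, 1 higher and 4 lower, against 13.3% (5.9% and 7.42%). EV-IL1b also had 5 of 7, 1 higher and 4 lower, against 14.6% (6.49% and 8.14%). EV-Epinephrine had 4 of 7, 1 higher and 3 lower, against 19.7% (9.12% and 10.5%). EV-C5a had 0 of 7 by edgeR and by DESeq2, against 0.0503% of all genes by edgeR. In edgeR's test 3 of the 7 had an unadjusted p under 0.05, and the share of all genes at that threshold was not computed. EV-Control against Control had 6 of 7, 4 higher and 2 lower, against 21.9% (12.1% and 9.8%).

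Between vesicle and direct responses, 7 of 7 genes differed for TNF where 44.7% of all genes did. For IL1b 4 of 6 differed (35.2% of all genes), for C5a 1 of 6 (11.9%) and for epinephrine 3 of 6 (24.2%). IL1b against TNF gave 5 of 6, against 41.4%. With more calls in all genes, as with TNF and IL1b, the members' counts stand less apart from the background. The genes were chosen with results known, so these counts are a description.

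Counts in the lists of related genes are read against the shares of all genes called, which were 52.7% with TNF, 46.6% with IL1b, 22.6% with C5a, 25.2% with epinephrine, 13.3% with EV-TNF, 14.6% with EV-IL1b, 19.7% with EV-Epinephrine and 21.9% in EV-Control against Control. In the 9 comparisons that follow, the median log2 change of all genes lay between -0.01 and 0.01. Of 8 genes of the complex and its phosphatases, all measured, 4 rose and 0 fell with IL1b (median log2 change 0.14), near the background share, and 3 rose and 1 fell with library totals as the scale. With TNF 3 rose and 2 fell (median 0.13), also near the background, which became 1 and 4 with library totals. With C5a 2 rose and 1 fell, with epinephrine PDP2 alone rose, and none passed the test in EV-Control against Control. PDP2, a phosphatase that opposes the kinases, rose from 11.8 ± 1.83 CPM (SD, n = 3) in Control to 22.4 ± 1.92 with IL1b (log2 change 0.94, adjusted p = 9.01e-09) and to 20.7 ± 1.14 with C5a (0.82, adjusted p = 7.46e-07). These are the 2 groups where PDK4 was lowest. PDP2 rose as well from 12.9 ± 0.974 CPM in EV-Control to 20.1 ± 0.597 in EV-Epinephrine (0.64, adjusted p = 1.05e-06), the vesicle group with least PDK4. It also rose with epinephrine, where PDK4 was high (0.32, adjusted p = 0.0391), and in EV-TNF (0.33, adjusted p = 0.0178). PDP1 rose with TNF, from 78.8 ± 2.99 to 134 ± 1.21 CPM (0.76, adjusted p = 6.3e-14).

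Of 14 measured genes known to respond to FOXO factors or glucocorticoids, as PDK4 does, 9 fell and 2 rose with IL1b (median log2 change -0.93), and 9 fell and 1 rose with C5a (median -1.17). Of all genes, 22.6% were called lower with IL1b and 10.8% with C5a. With TNF 5 rose and 4 fell (median 0.05), which became 4 and 7 (median -0.23) with library totals, and with epinephrine 5 rose and 6 fell (median -0.14). The genes named from this list are called ones with the largest changes, so they do not stand for its other members. PER1, a clock gene with a glucocorticoid element, was at 390 ± 21.7 CPM in Control, 120 ± 7.75 with IL1b and 118 ± 1.96 with C5a (log2 changes -1.70 and -1.71, adjusted p = 1.39e-21 and 6.43e-21). It also fell with epinephrine, where PDK4 was highest, to 227 ± 22.3 CPM (-0.77, adjusted p = 2.6e-12). IRS2, an insulin receptor substrate and FOXO target, fell from 11.3 ± 1.26 to 2.96 ± 0.185 and 3.41 ± 0.353 CPM (-1.92 and -1.72, adjusted p = 2.99e-13 and 2.04e-11). KLF4 fell with C5a from 119 ± 28.7 to 31.7 ± 0.892 CPM (-1.90, adjusted p = 9.57e-05), and KLF2 fell with IL1b, TNF and epinephrine (-1.84, -1.45 and -0.99).

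In the vesicle design, of 15 measured, 10 rose and 2 fell in EV-Control against Control (median 0.30). Against EV-Control 8 fell and 0 rose with EV-TNF (median -0.36), 8 fell and 0 rose with EV-IL1b (-0.40), and 9 fell and 1 rose with EV-Epinephrine (-0.44). With EV-C5a the median was -0.04. BCL6, a repressor that FOXO factors induce, was at 124 ± 4.14 CPM in EV-Control and at 64.8 ± 4.34, 58.9 ± 4.41 and 49.0 ± 5.31 in EV-TNF, EV-IL1b and EV-Epinephrine (log2 changes -0.95, -1.08 and -1.35, adjusted p = 8.69e-16, 3.39e-17 and 4.85e-20). It stood at 65 ± 0.829 CPM in Control. PER1 fell from 481 ± 59.1 CPM to 234 ± 13.4, 245 ± 9.19 and 185 ± 4.12 in the same 3 groups. The list was written with results of these libraries known, and no test compared it with other lists.

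More glycolysis genes rose than fell with each direct stimulus under the main scaling. Of 26 measured, 15 rose and 6 fell with TNF (median 0.23), although with library totals 10 rose and 11 fell. With IL1b 17 rose and 5 fell (median 0.24), with epinephrine 11 and 2 (0.09), with C5a 7 and 2 (0.07), and in EV-Control against Control 14 and 1 (0.13). PFKFB3, which makes the activator of phosphofructokinase, rose with TNF from 44.0 ± 2.35 to 331 ± 11.6 CPM (log2 change 2.91, adjusted p = 4.1e-20) and with IL1b to 89.2 ± 3.78 (1.03, adjusted p = 1.06e-10). HK2, a hexokinase, rose with TNF and IL1b from 11.4 ± 0.162 to 36.2 ± 1.65 and 38.2 ± 1.1 CPM. The glucose carrier SLC2A3 fell with C5a, from 45.0 ± 4.81 to 22.7 ± 1.11 CPM (-0.98, adjusted p = 3.73e-11). Against EV-Control 10 of 26 fell and 1 rose with EV-TNF, and 8 fell and 2 rose with EV-IL1b. With EV-Epinephrine 7 fell and 2 rose (5 and 5 with library totals). PFKFB3 was at 113 ± 42.7 CPM in EV-Control and at 55.6 ± 1.23, 52.5 ± 2.12 and 50.1 ± 2.27 in those groups (adjusted p from 0.00499 to 0.0149).

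Of 23 measured genes of fatty acid oxidation and its control, 12 fell and 6 rose with TNF (median -0.19), or 17 and 3 with library totals. The list also holds acetyl-CoA carboxylases, which make malonyl-CoA, so its counts are not those of oxidation enzymes alone. With IL1b 8 fell and 4 rose (median -0.08), near the background share, or 14 and 3 with library totals. HADH, a beta-oxidation dehydrogenase, fell with TNF from 34.6 ± 2.14 to 15.4 ± 2.84 CPM (-1.16, adjusted p = 1.03e-12). ACACB, whose product malonyl-CoA inhibits CPT1, fell from 8.98 ± 1.11 to 2.64 ± 0.398 (-1.76, adjusted p = 7.72e-11). C5a and epinephrine changed 3 and 6 of the 23, EV-TNF 6, EV-IL1b 5 and EV-Epinephrine 5, all by less than 1 on the log2 scale among the genes named by the rule. Of 14 measured PPAR-responsive genes, 7 fell and 2 rose with TNF (median -0.19), or 10 and 0 with library totals, 7 fell and 3 rose with IL1b (-0.21), and C5a and epinephrine gave 4 rises each, with 3 and 4 falls. With EV-Epinephrine 5 rose and 1 fell (median -0.03). FABP4, a fatty acid carrier and PPARG target, rose from 16.2 ± 1.24 CPM in EV-Control to 24.6 ± 0.658 in EV-TNF, 25.3 ± 2.16 in EV-IL1b and 30.1 ± 1.73 in EV-Epinephrine (log2 changes 0.60, 0.64 and 0.90, adjusted p from 2.35e-11 to 1.76e-06). In these groups PDK4 and ANGPTL4, both known PPAR targets too, fell. UCP2, the mitochondrial carrier, fell with TNF from 22.9 ± 0.883 to 8.45 ± 0.622 CPM (-1.45, adjusted p = 8.81e-14).

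Of the transcription factors of fuel choice, 19 were measured. Among those with at least 5 CPM in the higher group, HIF1A had the largest called change with TNF, IL1b and epinephrine. It rose from 365 ± 16.1 CPM in Control to 752 ± 36.2 with TNF, 674 ± 20.1 with IL1b and 590 ± 52.0 with epinephrine (log2 changes 1.04, 0.89 and 0.70, adjusted p from 2.88e-19 to 3.84e-13). In EV-Control it was at 540 ± 33.7 CPM, above Control (0.57, adjusted p = 1.32e-13), and it fell to 418 ± 10.2, 414 ± 8.6 and 406 ± 9.68 in EV-TNF, EV-IL1b and EV-Epinephrine. FOXO1 fell in EV-IL1b and EV-Epinephrine, from 25.5 ± 0.386 to 19.0 ± 1.99 and 18.5 ± 0.964 CPM (-0.42 and -0.46, adjusted p = 0.000338 and 6.16e-05). PPARG rose in EV-Epinephrine from 25.1 ± 1.02 to 36.2 ± 0.728 CPM (0.53, adjusted p = 1.81e-07). In all, TNF raised 6 of the 19 and lowered 6 (4 and 11 with library totals), IL1b 8 and 3, C5a 2 and 2, and epinephrine 6 and 5 (5 and 6 with library totals). The counts with C5a lie near the share of all genes called.

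The neighbours of ANGPTL4 and TXNIP gave mixed pictures. Of 8 measured genes of the lipoprotein lipase system, 3 rose and 4 fell with TNF and 3 rose and 2 fell with IL1b. Endothelial lipase LIPG rose with TNF from 30.2 ± 1.87 to 177 ± 2.32 CPM (2.55, adjusted p = 3.75e-29) and with IL1b to 98.3 ± 3.08 (1.71, adjusted p = 5.2e-23), and it fell from 32.6 ± 3.76 to 22.5 ± 0.938, 22.3 ± 2.18 and 26.5 ± 1.99 CPM in EV-TNF, EV-IL1b and EV-Epinephrine. Of 3 measured alpha-arrestins, TNF raised 2 and lowered 1 (1 and 1 with library totals), IL1b and C5a lowered 2 each and epinephrine lowered 3. ARRDC3, which takes adrenergic receptors out of the membrane, fell from 157 ± 20.9 CPM to 41.4 ± 1.15 with IL1b and 29.1 ± 2.91 with C5a (-1.91 and -2.42, adjusted p = 6.61e-08 and 5.53e-08). It also fell with epinephrine, to 105 ± 10.1 (-0.57, adjusted p = 0.00317), where PDK4 was high, and rose with TNF to 227 ± 30.7 (0.53, adjusted p = 0.00167). It was at 224 ± 28.0 CPM in EV-Control and fell to 94.4 ± 5.15 in EV-Epinephrine (-1.25, adjusted p = 4.82e-05). Of 14 hypoxia-responsive genes, 8 rose and 4 fell with TNF (median 0.45), 5 and 4 with IL1b (-0.01), and 1 and 7 with C5a (-0.17). BHLHE40 was at 235 ± 18.7 CPM in Control, 663 ± 49.3 with TNF, 71.0 ± 3.99 with IL1b and 42.0 ± 3.31 with C5a (1.495, -1.72 and -2.48, adjusted p from 1.34e-11 to 1.45e-10). Of 13 measured in the vesicle fit, 7, 9 and 7 fell in EV-TNF, EV-IL1b and EV-Epinephrine, and 1 rose, in EV-Epinephrine.

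The genes whose pattern was most like that of PDK4 were found by Pearson correlation over the 10 group means of log2 CPM, among 1542 genes with a mean of at least 5 CPM and a range of at least 1. They were ANXA1 (0.954), NRARP (0.949), SFTA1P (0.929), NR4A1 (0.922), APOLD1 (0.916) and ID3 (0.908). The points share the depth and scaling of the same 30 libraries, and the groups that chose PDK4 are among them, so these values describe the pattern. Over the 30 libraries 5 of the 6 stayed among the 6 highest, and by rank correlation 2 did. ANXA1 is an anti-inflammatory phospholipid-binding protein, NRARP a feedback inhibitor of Notch, NR4A1 an immediate early nuclear receptor and ID3 an inhibitor of bHLH factors. NR4A1 stood at 191 ± 8.46 CPM in Control, 17.5 ± 1.16 with IL1b, 26.8 ± 2.6 with C5a and 416 ± 56.2 in EV-Control. With epinephrine it was at 171 ± 21.8 CPM, so the PDK4 level of 166 CPM there had no counterpart in NR4A1. NRARP did share it, at 66.3 ± 7.69 CPM against 40.2 ± 3.6 in Control. The lowest correlations were those of MARS2 (-0.957), GDF5 (-0.944) and ZNF786 (-0.901), whose levels were highest with IL1b, GDF5 at 39.3 ± 2.21 CPM against 18.8 ± 0.967.

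**Figure D5:**
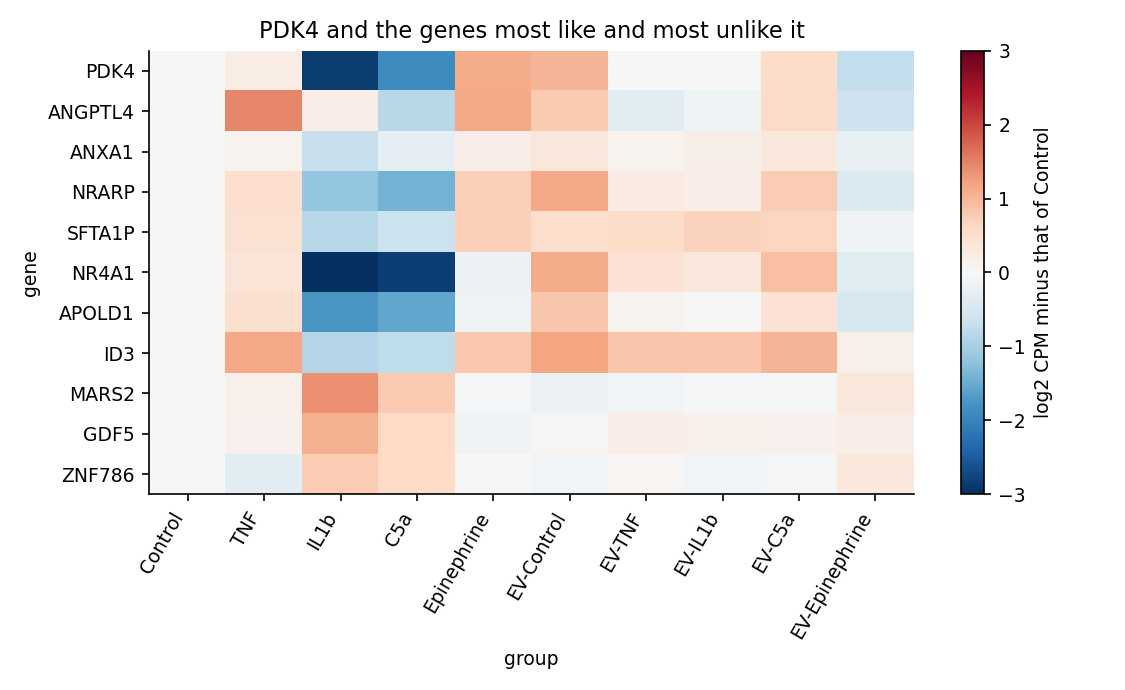
Log2 CPM of each group mean minus that of Control (colour scale, ending at -3 and 3) for PDK4, ANGPTL4, the 6 genes most like PDK4 and the 3 most unlike it (rows) in the 10 groups (columns). The IL1b and C5a columns are blue in PDK4 and the 6 like genes and red in the 3 unlike genes, and NR4A1 with IL1b, at -3.44, lies beyond the scale.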

How the data were processed

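The authors deposited 1 table of raw read counts per gene for the 30 libraries. Per the labels' protocols, RNA came from spin columns and 1 ng of it went into each library. The submitters' processing notes name STAR, FastQC, DESeq2, R 4.4.1 and hg38, in no stated role; the counter, annotation and use of strand are not given in the sources used here. Lines without a gene ID held 0.00079 to 0.0016% of a library's counts and were left out, as were TTN and ANK2, whose records are broken over lines. Of 63138 genes kept, 41189 had a symbol.

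Counts were tested with edgeR 4.0.16 (quasi-likelihood test, robust, TMM factors, filterByExpr, Benjamini-Hochberg adjustment over all tested genes, threshold 0.05) in R 4.3.3. The 15 direct libraries (15908 genes) and the 15 vesicle libraries (15918) were fitted apart, and all 30 (16691) for EV-Control against Control and for vesicle minus direct responses. CPM used the factors of all 30, per-length values the exon union of GENCODE 29. Alternatives were other scalings, filters, DESeq2 1.42.0, a replicate block, other sets of libraries and a log2 threshold of 1. The test was checked on simulated counts.

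The members and lists were chosen with earlier results of these data known. All members are named. Of each list, the text names only genes among the 3 called with the largest change per comparison and at least 5 CPM in the higher group. Genes like PDK4 were the 6 highest and 3 lowest correlations among genes of at least 5 CPM and a log2 range of at least 1.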

Additional observations from a re-analysis of the deposited data

Results flagged for a closer look

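The vesicle response, against EV-Control, differed from the direct response, against Control, in an interaction test of all 30 libraries (edgeR's quasi-likelihood test, adjusted p under 0.05) for the genes that follow, given as the vesicle minus the direct log2 change. For TNF the difference was -2.603 for ANGPTL4, -1.257 for PDK4, -0.8 for PDK1, -0.323 for TXNIP, 0.354 for CPT1A, 1.009 for PDK2 and 1.037 for PDK3. The PDK4 value includes the Control libraries of the contrasts that chose the gene. For TXNIP it was -0.03 (adjusted p = 0.75) with library totals as the scale. For IL1b the difference was -1.127 for ANGPTL4, -1.047 for PDK1, 0.377 for CPT1A and 0.626 for PDK2. For C5a it was 0.632 for ANGPTL4. For epinephrine it was -2.538 for ANGPTL4, -0.755 for PDK1 and 0.727 for TXNIP.

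Each direct Control and EV-Control library enters all of these differences, so they are not independent of each other. PDK4 with epinephrine moved in opposite directions in the 2 designs, in every library, with a difference of -2.907. Of all tested genes, 33.9% had no overlap of libraries in the direct comparison and 34.1% in the vesicle comparison. The PDK4 difference was not tested, because the direct contrast chose the gene.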

How the results depend on the processing

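The calls on PDK4, ANGPTL4 and PDK1 in EV-TNF, EV-IL1b and EV-Epinephrine kept their direction under every alternative run and held without any single library. Fits of only the 2 groups compared left 3 members called with EV-TNF and 3 with EV-IL1b in place of 5, with PDK4 and PDK3 lost in both. With a log2 change over 1 required as well, the members called were 2 with TNF, 0 with IL1b, 0 with C5a, 1 with epinephrine, 2 with EV-TNF, 1 with EV-IL1b, 2 with EV-Epinephrine and 1 in EV-Control against Control. They were 4, 2, 0 and 1 for the vesicle-minus-direct differences of TNF, IL1b, C5a and epinephrine, and 1 for IL1b against TNF. Under the same rule the genes called were, in that order with EV-C5a before EV-Epinephrine, 2037, 1118, 330, 313, 208, 219, 0, 368, 372, 2260, 1188, 264, 768 and 1124. The 8 genes called with EV-C5a became 5 with library totals as the scale, 73 with no filter on low counts (1 member, ANGPTL4), and 3 each with a mean of 50 counts, with all 30 libraries and with only the 2 groups. Leaving out 1 library gave 2 to 175 genes and 0 to 1 member there, 1 to 2 members with C5a and 2 to 3 with epinephrine.

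With library totals as the scale the log2 change with TNF reversed to -0.051 for PDK1 and -0.053 for PDK4, and that of CPT1A to 0.001 with EV-IL1b and to 0.149 between IL1b and TNF (adjusted p = 0.00514). That scale moved the share of higher genes among those called from 52.1% to 22.7% with TNF, from 51.5% to 38.6% with IL1b, from 46.4% to 60.2% with EV-Epinephrine, from 44.3% to 52% with EV-TNF, from 44.4% to 52.2% with EV-IL1b, from 55.3% to 42.6% in EV-Control against Control, and from 48.1% to 76.1% for IL1b against TNF. For the vesicle-minus-direct differences it moved it from 47.7% to 76.7% for TNF, from 48.1% to 62.4% for IL1b and from 48.3% to 57% for epinephrine. The cause was not tested.

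Leaving out 1 library changed the sign of 12 values that were not called. They ranged from -0.162 to 0.033 for PDK3 with IL1b, from -0.036 to 0.029 for TXNIP with C5a, and from -0.007 to 0.061 for CPT1A with epinephrine. With EV-TNF they ranged from -0.082 to 0.026 for PDK2 and from -0.007 to 0.032 for CPT1A. With EV-C5a they ranged from -0.014 to 0.199 for PDK1, from -0.123 to 0.003 for PDK2, from -0.121 to 0.063 for PDK3 and from -0.001 to 0.061 for CPT1A. With EV-Epinephrine PDK2 ranged from -0.144 to 0.021. The vesicle-minus-direct difference ranged from -0.129 to 0.079 for PDK1 with C5a and from -0.019 to 0.167 for PDK3 with epinephrine. Counts called in the 9 lists moved by over 1.5 times in 12 of 126 values with only the 2 groups fitted, in 8 with no filter on low counts, in 3 each with DESeq2 and library totals, and in 71 when leaving out 1 library, where 901 did not. By rank correlation 2 of the 6 genes most like PDK4 stayed among the 6. Replicate numbers did not pair libraries (correlations of same-numbered deviations from -0.039 to 0.026), and the replicate block changed no call on the members, with PDK4 in EV-Epinephrine at -1.775 (adjusted p = 0.000189). Counts were lowest for ARRDC4, at most 15 in a library, and next for PDK3, from 57 to 297, whose standard errors were the largest of the tested members in the direct comparisons.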

Other observations

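The other members had other nearest genes by the same correlation over 10 group means, among 5011 genes (5012 for CPT1A) with a range of at least 0.5 on the log2 scale. For ANGPTL4 they were IFRD1 (0.964), RCAN1 (0.959), a calcineurin inhibitor, and ATG101 (0.951), an autophagy protein. For PDK3, which stood higher in all vesicle groups, they were LAPTM4B (0.99), LRP4 (0.986) and PHGDH (0.974), the entry enzyme of serine synthesis. For PDK2 they were PLCD3 (0.994), LMBRD2 (0.994) and ARPIN (0.993). For PDK1 they were GNAI1 (0.932), KLHL18 (0.91) and RRP12 (0.889). For TXNIP they were SLC7A6OS (0.908), BST1 (0.868) and CADPS2 (0.858), and for CPT1A they were CCDC171 (0.975), MGST3 (0.971) and CREB3L4 (0.944). The points share the same 30 libraries, and these values are descriptions.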
